A study of Mus musculus with 2 samples.

Results

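Mir221 and Mir222 are a pair of neighbouring microRNA genes on the mouse X chromosome. They were taken by symbol, as the rows that GENCODE M21 names Mir221 (ENSMUSG00000065422.1) or Mir222 (ENSMUSG00000065471.1), which gave 2 of the 2202 microRNA genes counted. The libraries are microRNA-seq of 1 tissue, the left cerebral cortex. The mice were male B6CASTF1/J, a hybrid of the C57BL/6J and CAST strains, at 36 days of age. The labels name no treatment or engineered allele. There are 2 libraries in 1 group, replicate 1 from the animal numbered 3 and replicate 2 from the animal numbered 4, with a labelled RNA size range below 30 bases. Both animals carry 1 donor identifier in the labels, and they were taken as separate because the labels number them so. The design therefore holds no contrast between conditions. It can show how abundant the pair is in cortex, in what proportion its members stand, and how far each differs between the libraries.

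MicroRNAs are cut from hairpin precursors and guide silencing complexes to messenger RNAs, mainly through the seed, bases 2 to 8 of the mature strand. Mir221 and Mir222 are usually described as products of a shared primary transcript. Their 3p strands have the same seed and are best known for repressing Cdkn1b, which encodes the cell-cycle inhibitor p27, and Kit, which encodes the receptor of stem cell factor. They are studied in vascular endothelium and smooth muscle, where they bear on proliferation, and in glioma.

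The mature sequences are shown because the shared seed and the differing remainder are what separates the members. They are RefSeq sequences on GRCm38.p6, the genome that mm10 denotes, written 5′ to 3′ with the seed in capitals.
miR-221-3p: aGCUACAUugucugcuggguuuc
miR-222-3p: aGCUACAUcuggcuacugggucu
miR-221-5p: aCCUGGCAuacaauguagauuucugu
miR-1928: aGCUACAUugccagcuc
The 3p strands of Mir221 and Mir222 are each 23 bases long and identical over their first 8 bases. Without gaps they match at 11 positions. After the shared start the longest common stretch is the 6 bases CUGGGU, which begins at base 15 of miR-221-3p and at base 16 of miR-222-3p. Of 1738 mature microRNAs in the RefSeq table, 3 have this seed, and the other is miR-1928, whose first 10 bases are those of miR-221-3p. Mir1928 had 0 counts in both libraries. A count of 0 was taken to allow up to 3 counts, or 0.702 and 0.748 CPM in replicates 1 and 2. That allowance concerns counted reads only, and multi-mapped reads are not among them. The 5p strand of Mir221 has a seed that no other mature microRNA of the table shares.

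The hairpins are shown with the listed mature strands in capitals, because the tables count each hairpin as a whole.
Mir221 hairpin: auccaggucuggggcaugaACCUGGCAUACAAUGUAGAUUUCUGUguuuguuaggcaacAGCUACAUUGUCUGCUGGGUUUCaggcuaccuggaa
Mir222 hairpin: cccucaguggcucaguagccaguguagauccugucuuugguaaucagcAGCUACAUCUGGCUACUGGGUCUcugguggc
The Mir221 hairpin lies at chrX:19146294-19146388 (mm10, minus strand), is 95 bases long and has a GC content of 47.4%. The Mir222 hairpin lies at chrX:19146893-19146971 on the same strand, is 79 bases long and has a GC content of 54.4%. Between them are 504 bases, with Mir222 upstream in the direction of transcription. No other GENCODE M21 gene overlaps the span of the pair, so neither hairpin is in an annotated exon, intron or UTR. The next annotated gene upstream is the noncoding Gm14636, 10009 bases away on the same strand. On the other side the next is the pseudogene Gm5383, 203065 bases away on the opposite strand. No other hairpin of the table shares a stretch of 16 bases with either member on either strand, and each listed mature strand occurs in the transcripts of no other annotated gene (55450 genes searched). Reads that map to several loci were left out of the gene counts, and their share of the sequenced reads was 42.8% and 39.9% in replicates 1 and 2. Copies of the mature strands outside annotated transcripts were not searched here.

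Both genes were well above the detection level of 10 CPM in both libraries, and Mir221 was the more abundant. CPM is a gene's own-strand counts scaled to a library total of 1000000 own-strand counts at microRNA genes, of which replicate 1 had 4273791 and replicate 2 had 4010274. Mir221 had 22224 counts in replicate 1 and 30827 in replicate 2, or 5200 CPM (exact 95% interval 5132 to 5269) and 7687 CPM (7602 to 7773). It was higher in replicate 2, and the intervals, which cover counting error only, did not overlap. Its mean was 6444 ± 1759 CPM (SD, n = 2), which ranked 34 among all microRNA genes. Mir222 had 4519 counts in replicate 1 and 3806 in replicate 2, or 1057 CPM (1027 to 1089) and 949.1 CPM (919 to 980). It was lower in replicate 2, again with intervals that did not overlap. Its mean was 1003 ± 76.6 CPM (SD, n = 2), which ranked 99. Both genes had 0 counts on the opposite strand in both libraries, and their unstranded counts equalled the own-strand counts. In bulk tissue, fewer cells of a type and less RNA per cell cannot be told apart.

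**Figure D1:**
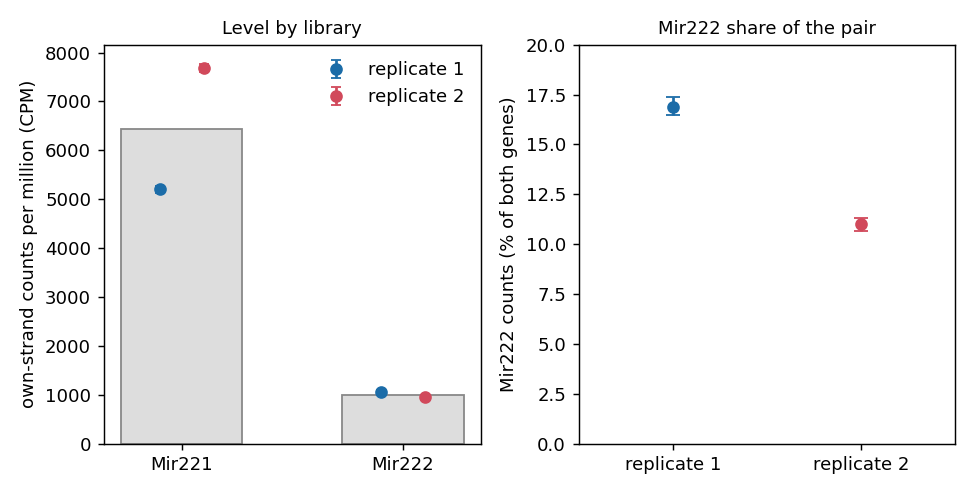
Left, CPM of Mir221 and Mir222 on a linear axis from 0; bars are means of 2 libraries and points are single libraries with exact 95% counting intervals. Right, counts of Mir222 as a percentage of both genes' counts in each library, with exact 95% intervals; the share was 16.9% in replicate 1 and 11.0% in replicate 2.

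Mir221 exceeded Mir222 in each library, and the lowest Mir221 level lay above the highest Mir222 level. The counts of Mir221 were 4.92 times those of Mir222 in replicate 1 (exact 95% interval 4.76 to 5.08) and 8.10 times in replicate 2 (7.83 to 8.38). Per base of hairpin Mir221 gave 54.7 and 80.9 CPM in replicates 1 and 2, while Mir222 gave 13.4 and 12.0 CPM. On that scale Mir221 had 4.09 and 6.74 times the value of Mir222. A small-RNA read covers about a whole mature strand, so its count does not grow with the length of the hairpin. The plain ratios of 4.92 and 8.10 are therefore the ones to compare, and the scale per base is given only beside them. Together the members reached 6257 and 8636 CPM in replicates 1 and 2, with a mean of 7447 ± 1682 CPM (SD, n = 2). Since Mir1928 had no counts, this is also the sum over the 3 listed genes with the GCUACAU seed. The tables give 1 value per gene, with 5p and 3p reads pooled, and the sum is therefore no measure of the 3p strands alone.

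The members differed between the libraries in opposite directions. Mir221 was higher in replicate 2 by a log2 ratio of 0.60 (exact 95% interval 0.58 to 0.63), a 1.52-fold difference, relative to TMM effective library sizes. Its adjusted p in the exact two-sided binomial test was under the smallest number that the arithmetic can hold. Mir222 was lower in replicate 2, with a log2 ratio of -0.12 (interval -0.18 to -0.05), and the same exact test gave it a Benjamini-Hochberg adjusted p of 0.000624. Neither member reached a 2-fold difference. Across the 516 genes tested, 27.5% were called higher and 30.4% lower in replicate 2, so calls in either direction were common and these mark differences between the libraries, not between conditions. The p-values measure counting error in 2 libraries. The call of Mir222 was nearest the threshold with DESeq2 size factors, where the exact test gave an adjusted p of 0.0238 at a log2 ratio of -0.08.

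Among the genes that reached 100 counts over both libraries, Mir221 differed between the libraries somewhat more than the median gene and Mir222 less. The median absolute log2 ratio over these 309 genes was 0.46. A larger absolute ratio than that of Mir221 was seen in 119 of them (38.5%). A larger one than that of Mir222 was seen in 260 (84.1%). In terms of level, the SD was 27.3% of the mean for Mir221 and 7.63% for Mir222 (n = 2).

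**Figure D2:**
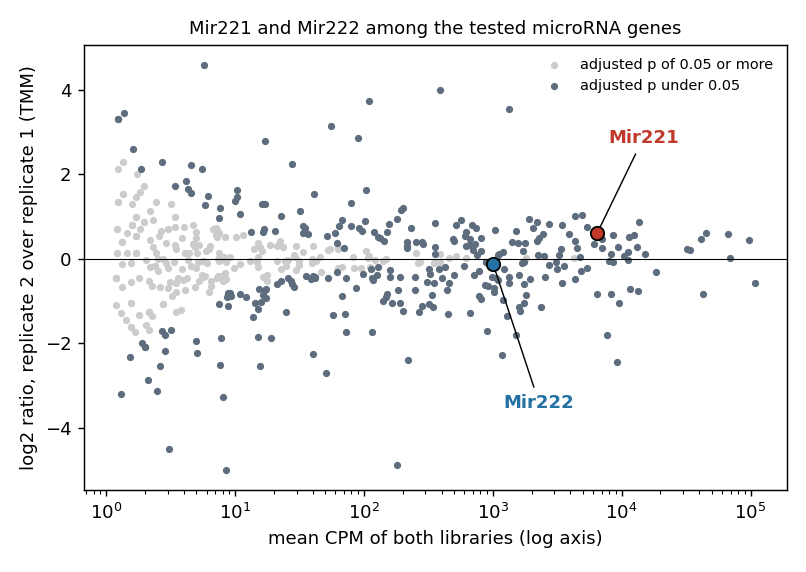
log2 ratio of replicate 2 over replicate 1 (TMM) against mean CPM on a log axis, with a point for each tested microRNA gene that had counts in both libraries, darker where the adjusted p was under 0.05. Mir221 lies above the line of no difference at 0.60 and Mir222 just below it at -0.12, both within the spread of other genes of like level.

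The proportion of the members can be compared without scaling the libraries, because both are counted in the same library. Mir222 made up 16.9% of the pair's counts in replicate 1 (exact 95% interval 16.5 to 17.4) and 11.0% in replicate 2 (10.7 to 11.3), a mean of 13.9% ± 4.18 (SD, n = 2). The difference, replicate 2 minus replicate 1, was -5.91 percentage points, with p = 7.95e-99 in Fisher's exact test (two-sided). The odds of a read being Mir221 rather than Mir222 were 1.65 times as high in replicate 2 (1.57 to 1.73). This p-value and these intervals treat reads as the units and cover counting error only, not variation between animals or libraries. The log2 ratio of Mir221 to Mir222 was 2.30 in replicate 1 and 3.02 in replicate 2.

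A shift of this kind was usual among neighbouring microRNA genes. In all, 22 clusters of exactly 2 genes within 10 kb on 1 strand had 100 or more counts in each gene, and the partner ratio differed between the libraries in 20 of them (90.9%; Fisher's exact test, adjusted p under 0.05 over the clusters). For Mir221 and Mir222 the adjusted p was 3.50e-98 in this exact test. The size of the shift, 0.72 on the log2 scale, lay near the median of the other 21 clusters, 0.76, and 11 clusters had a larger one. In 12 of the 22 clusters, Mir221 with Mir222 among them, the partners were called in opposite directions. That number was 14 with DESeq2 size factors and 11 with plain library totals, each time with Mir221 and Mir222 among them. Over the other clusters, the less abundant partner made up a median of 8.03% of the counts in replicate 1 and 7.77% in replicate 2. Both medians lay below the share of Mir222 in that library. Multi-mapped reads are not in these counts, so a partner whose mature strand has copies at other loci can be undercounted. The effect of this on the shares and shifts of the clusters was not tested.

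**Figure D3:**
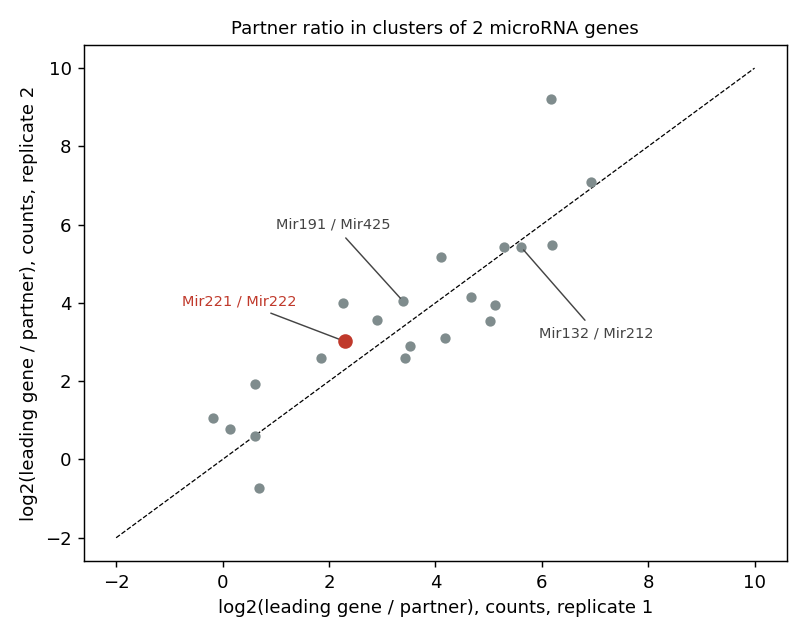
log2 ratio of the leading gene's counts to its partner's in replicate 1 (horizontal) and replicate 2 (vertical) for 22 clusters of 2 microRNA genes, with a dashed line where the libraries are equal. Mir221 with Mir222 (red) lies above the line at 2.30 and 3.02, and Mir191 with Mir425 lies above it at 3.39 and 4.05.

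A pair of like clusters shows the same comparison beside it. Mir191 and Mir425, a cluster hosted by a protein-coding gene, also differed in opposite directions. Mir191 stood at 8612 and 10233 CPM in replicates 1 and 2, a log2 ratio of 0.29, and Mir425 at 823 and 617 CPM, a log2 ratio of -0.38. The partner ratio of that cluster shifted by 0.67 on the log2 scale, close to the 0.72 of Mir221 and Mir222. Mir132 and Mir212, which neuronal activity induces together, were both lower in replicate 2. Mir132 had 54937 and 30022 CPM in replicates 1 and 2, a log2 ratio of -0.83, and Mir212 had 1121 and 700.5 CPM, a log2 ratio of -0.64. Their partner ratio shifted by 0.19. These differences between clusters were not tested.

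The neighbours of each member in the order of mean levels are given to place it, and nearness of mean made overlap with it likely from the start. Next above Mir221 stood Mir674 at 6465 ± 2655 CPM and Mir379, of the imprinted cluster on chromosome 12, at 6721 ± 1572 CPM (SD, n = 2). Next below stood Mir138-1, a neuronal microRNA gene, at 6323 ± 1458 CPM and Mir143, of smooth muscle and pericytes, at 6188 ± 1832 CPM. Next above Mir222 stood Mir667 at 1014 ± 402 CPM and Mir1249 at 1016 ± 351 CPM, and next below stood Mir1983 at 984.7 ± 40.5 CPM and Mir29c at 977.9 ± 224 CPM (SD, n = 2). The range of each of these 8 genes over the libraries overlapped that of its member. Within a library the order could differ. Mir674 had 8342 and 4587 CPM in replicates 1 and 2, against 5200 and 7687 CPM for Mir221.

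The genes most like each member over the 2 libraries were found by the distance in log2(CPM + 1). For Mir221 they were Mir138-1 (distance 0.07), Mir143 (0.10) and Mir379 (0.11). Mir138-1 had 5292 and 7354 CPM in replicates 1 and 2, and Mir143 had 4892 and 7484 CPM. For Mir222 they were Mir1983 (0.06), Mir29c (0.24) and Mir322 (0.24). Mir1983 had 1013 and 956 CPM, while Mir322, an X-linked gene of a growth-linked cluster, had 1082 and 1121 CPM. With 2 libraries, likeness says little beyond a similar level and a similar difference.

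Among 142 microRNA genes annotated on the X chromosome, Mir221 ranked 2 by mean level and Mir222 ranked 8. Of the X-linked genes, Mir652 had a higher mean than Mir221, with levels of 9906 and 17583 CPM in replicates 1 and 2. Its range did not overlap that of Mir221, which was 5200 to 7687 CPM. Mir361 followed Mir221 with 3252 and 6508 CPM, a range that overlapped. Mir98 and Mirlet7f-2, let-7 relatives that lie side by side, had 3806 and 4929 CPM and 3457 and 2867 CPM. Of the other 140 X-linked genes, 41 could be tested, and 10 of them (24.4%) were called higher and 13 (31.7%) lower in replicate 2, near the 27.5% and 30.4% over all tested genes. Their median log2 ratio was 0.02, against -0.04 over all genes tested. Mir652, Mir361 and Mir98 were called higher, like Mir221, with log2 ratios of 0.87, 1.04 and 0.41, and Mirlet7f-2 was called lower at -0.23. These calls share the exact binomial test described for the members.

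**Figure D4:**
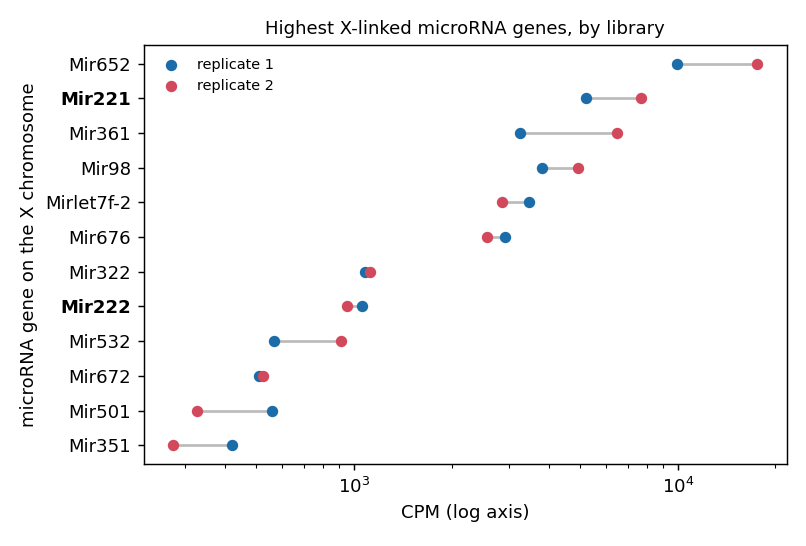
CPM on a log axis of the 12 X-linked microRNA genes with the highest mean levels, with a point for each library joined by a line. Mir221 lies in position 2 from the top, at 5200 and 7687 CPM, and Mir222 in position 8, at 1057 and 949.1 CPM.

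Genes listed for microglia and leukocytes, vascular cells and red cells had counts beside those listed for neurons, and no cell type was called from them. The lists were not tested as such, and their calls stand against the 27.5% of all tested genes called higher and 30.4% called lower. Of 9 neuronal genes, 8 had counts, led by Mir132, Mir128-1, Mir138-1 and Mir137, and only Mir124a-2 was at 0. Mir124a-1 (2.34 and 3.74 CPM) and Mir124a-3 (4.68 and 0.997 CPM) lay below the detection level of 10 CPM in both libraries. Multi-mapped reads are not in these counts, so genes whose mature strand has copies at other loci can be undercounted. The low values of the Mir124a genes therefore do not show that their mature strand is scarce, and the neuronal sum holds counted reads only. The neuronal list came to 85535 and 53459 CPM in all in replicates 1 and 2, with 2 of 8 tested genes called higher and 5 lower. Mir132 alone gave 54937 and 30022 CPM of these sums. Mural and smooth muscle genes came to 5178 and 7691 CPM, with Mir143 higher at a log2 ratio of 0.65, Mir145a lower at -0.42 and Mir145b at 0 counts. The endothelial list rested on Mir126a, at 11394 and 10799 CPM, with Mir126b at 0 counts. The red-cell list summed to 83.5 and 794 CPM, with Mir451a and Mir144 called higher and Mir486 not called. The microglia and leukocyte list summed to 2228 and 2065 CPM, with 2 of 5 genes higher and 2 lower. Mir150 (1334 and 1091 CPM) and Mir146 (773 and 858 CPM) gave most of this sum. Mir155 had 64.8 and 75.8 CPM, and Mir142 had 40.5 and 39.1 CPM. Mir223 had 70 and 2 counts, a log2 ratio of -5.00. The oligodendrocyte list summed to 5098 and 3543 CPM, with 2 of 3 genes lower. The part of these lists in the differences of Mir221 and Mir222 was not tested.

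Matches to the shared seed in known target messages are given as sequence context, since no messenger RNA was measured. The motif ATGTAGC pairs with bases 2 to 8 of both 3p strands, and it was searched on the transcribed strand of the 3′ UTR of 1 principal coding transcript per gene in GENCODE M21. It occurred in 8.16% of 21027 such UTRs. The sites below carry the motif in capitals, and each is followed by A, which gives the 8-base match ATGTAGCA.
Cdkn1b site: aaaagcattggATGTAGCattgcgcaatta
Kit site nearer the coding region: atgggagatatATGTAGCaagactagaaaa
Kit site farther from it: taaatattgaaATGTAGCaataatgtcttt
Cdkn1c site: acctttcgttcATGTAGCaggaaccggaga
Bbc3 site: ttttctgcaccATGTAGCatactggactgc
The Cdkn1b site begins at base 198 of a 3′ UTR of 1280 bases and is shown from chr6:134924420-134924449 (plus strand). The same UTR holds 2 further stretches TGTAGCA, the match of bases 2 to 7 followed by A, outside the 8-base match. Kit holds 2 sites, at bases 447 and 1978 of 2177, shown from chr5:75654981-75655010 and chr5:75656512-75656541 (plus strand). Cdkn1c, which encodes the related inhibitor p57, holds 1 at base 95 of 685, shown from chr7:143458914-143458943 (minus strand), and Bbc3, which encodes the pro-apoptotic protein PUMA, holds 1 at base 97 of 971, shown from chr7:16317320-16317349 (plus strand). Foxo3 had no match in the 545 bases searched, which are the 3′ UTR of the 1 transcript taken. Other or longer 3′ UTRs of Foxo3 were not searched, so a match there is not excluded. Among UTRs at least as long, cut to the same length from the stop codon, the motif occurred in 9.23% at the length of Cdkn1b, 16.1% at that of Kit, 4.50% at that of Cdkn1c, 6.71% at that of Bbc3 and 3.52% at that of Foxo3. A match is a description of sequence and shows no binding.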

How the data were processed

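The deposited tables, 1 per library, hold raw counts of reads per microRNA gene with no normalization by the authors. Per the text files deposited beside them, reads were mapped to mm10 with GENCODE M21; which aligner, counter and trimming were used is not stated there or in the labels. Of 3 count columns, the second was read as counts on the gene's own strand, from the layout. The 4 entries that name no gene were left out: unmapped (16.7% and 20.9% of all 11886775 and 11534730 reads in replicates 1 and 2), multi-mapped, unassigned (4.56% and 4.39%) and ambiguous reads. Genes with 10 or more counts together (516) were tested, replicate 2 against replicate 1, with an exact binomial test (two-sided) whose expected share came from library sizes scaled by TMM in edgeR 4.0.16 under R 4.3.3. The p-values were adjusted after Benjamini and Hochberg over all of these genes with a threshold of 0.05, and with 1 group no model of conditions was fitted. Partner shares were tested with Fisher's exact test. Intervals are Clopper-Pearson at 95% and cover counting error only. A count of 0 was taken to allow up to 3 counts, a fixed allowance that is not such an interval. Alternatives were DESeq2 1.42.0 size factors, totals, unstranded counts, other minimum counts and each library alone. Members and lists were chosen with earlier results of these data known. Named genes are the members, 2 neighbours in order on each side, the 3 most alike, seed mates, 2 like clusters, up to 4 per list and on the X chromosome, and list genes at 0. Mir124a-1, Mir124a-3 and Mir223 are named besides. Scripts, in Python 3.11.15 with SciPy 1.17.1, were tested on simulated data.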

Additional observations from a re-analysis of the deposited data

How the results depend on the processing

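Mir221 stayed higher and Mir222 lower in replicate 2, both with an adjusted p under 0.05 in the exact binomial test, under all 7 alternatives of scaling, counting and minimum counts that were run. The log2 ratio of Mir221 ranged from 0.49 to 0.64 and that of Mir222 from -0.23 to -0.08, with the low end of each without the most abundant gene in the totals and the high end with DESeq2 size factors. Levels depended on the denominator. Over all reads of a library the mean level was 2271 CPM for Mir221 and 355 CPM for Mir222. Without the most abundant gene in the total, the mean level was 7189 CPM for Mir221 and 1126 CPM for Mir222. Over unstranded counts it was 6953 CPM for Mir221 and 1082 CPM for Mir222. The members' own counts were the same in these settings, and only the denominator differed. With each library alone the level ran from 5200 to 7687 CPM for Mir221 and from 949.1 to 1057 CPM for Mir222, and the share of Mir222 from 11.0% to 16.9%. The number of genes called ran from 247 to 307, against 299 of 516, but their share of the genes tested depended on the minimum: 57.9% as reported, 79.9% (247 of 309) with 100 or more counts and 37.3% (292 of 782) with no minimum. The clusters called were 21 of 26 with 20 or more counts and 18 of 22 within 2 kb. No paired analysis was possible because the series holds 1 group.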

Other observations

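MicroRNAs of the cell-cycle clusters related to miR-17, like the pair linked to proliferation in other settings, were present at a lower summed level than the pair. The list came to 2858 and 3584 CPM in replicates 1 and 2, with a mean of 3221 ± 513 CPM (SD, n = 2), against 6257 and 8636 CPM for Mir221 and Mir222 together. Of its 15 genes 11 had counts and were tested, with 4 called higher, 3 lower and 4 not called in replicate 2 by the exact binomial test. These shares, 36.4% and 27.3%, rest on few genes and stand beside 27.5% and 30.4% over all tested genes. The median log2 ratio was 0.13, against -0.04 over all tested genes. Mir93 led with 1203 and 1836 CPM and a log2 ratio of 0.65, followed by Mir17 with 566 and 765 CPM and 0.48. Mir106b and Mir92-1 were lower in replicate 2, at -0.24 and -0.25. Mir18b, Mir19a, Mir19b-1 and Mir19b-2 had 0 counts in both libraries. Multi-mapped reads are in neither the list's sum nor the pair's, and how many each lost was not measured. The lower sum of the list therefore holds for the counted reads only.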
